A study of Homo sapiens with 17 samples.

Results

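Wild-type p53 target genes are described here in SW480 cells, a line of human colon cancer whose p53 is a missense mutant (mutp53). The members are a list of 36 direct targets of wild-type p53, found by gene symbol among the 26457 genes listed in the expression table that the authors deposited. All 36 were found, 35 of them passed a filter on low values, and SPATA18 did not.

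Wild-type p53 is a transcription factor that is stabilized by DNA damage and other stress, binds response elements in and near its target genes and raises their transcription. Its targets halt the cell cycle, promote apoptosis, repair DNA, adjust metabolism and, through MDM2, lower p53 itself. Missense mutations in the DNA-binding domain, common in colon cancer, impair this binding while the mutant protein often accumulates, and many targets also have p53-independent regulators such as NF-κB and stress-responsive transcription factors.

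Messenger RNA came from a pair of SW480 lines, each a stable carrier of an inducible short hairpin, directed at LacZ in control cells (shLacZ) and at p53 in mutp53-depleted cells (shp53). Doxycycline induced the hairpin in both lines, which were grown with puromycin. Each line was collected without TNF-α (0 h) and 16 h after its addition at 12.5 ng/ml. The 4 groups had 2 biological replicates each, A and B, sequenced as stranded poly(A) libraries. The lines came from another laboratory, and whether either is a single clone was not given in the sources used here. Because control and depleted cells are separately made lines, depletion of mutp53 and other differences between the lines cannot be told apart.

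Reads on genes numbered 12751404 and 6108488 in the replicate A and B libraries of control cells at 0 h. They numbered 9572568 and 6504713 in control cells at 16 h, 13809578 and 6749107 in depleted cells at 0 h, and 11038139 and 7498590 in depleted cells at 16 h. Replicate A was thus the deeper library in each of the 4 groups. The deposited values are reads on the exons of each gene, scaled so that the 8 libraries have the same total, and are called normalized reads here. A single read was worth between 0.670 and 1.52 normalized reads, so that a member at a few normalized reads rests on a few reads. Within each group the replicates lay further apart than sampling noise, with a chi-square per gene between 2.14 and 4.10.

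Differences were tested with limma on log2(normalized reads + 1) over 14800 genes, those whose mean over the libraries was 2.5 normalized reads or more. Calls were made where the Benjamini-Hochberg adjusted p over these genes was under 0.05 and the fold change was at least 2. Log2 fold changes are on this scale, which understates the change of genes with few reads. In bulk RNA, fewer cells of a kind and less RNA per cell cannot be told apart.

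Markers of colon epithelium were present. Of the 8 fixed markers, 7 were tested and CEACAM5 was at 0 in all 8 libraries. Their summed level was 70708 and 66176 normalized reads in the control libraries at 0 h, 56292 and 56382 at 16 h, 52479 and 52452 in depleted cells at 0 h and 42726 and 43889 at 16 h. Keratin genes KRT8 and KRT18 made up most of this sum, with 27733 and 27594 normalized reads in replicate A of control cells at 0 h. The sum was thus lower in depleted cells than in control cells at each time and lower at 16 h than at 0 h in each line.

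Of the 7 tested markers, 2 were called lower in depleted cells at 0 h and 2 at 16 h, where 9.55% and 10.2% of all genes were. These were VIL1, the villin gene of the brush border, with log2 fold changes of −5.49 at 0 h and −5.60 at 16 h, and EPCAM, an epithelial adhesion molecule, with −1.29 and −1.06. In depleted cells VIL1 had 13 and 9 reads at 0 h and 6 and 0 reads at 16 h. Its fold changes thus depend on the 1 added to each value and are not exact. By the adjusted p alone, 5 of the 7 markers were lower and 1 was higher at 0 h, where 25.2% and 27.3% of all genes were, with a median of −0.53. At 16 h 5 were lower and 2 higher, where 26.5% and 24.9% of all genes were, with a median of −0.45. After TNF-α, 3 of the 7 were called lower in control cells and 2 in depleted cells, where 4.27% and 4.50% of all genes were, with medians of −0.36 and −0.44. What part these shifts have in the results for the p53 targets was not tested.

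A list of 8 markers of leukocytes, fibroblasts and endothelium summed to between 54.5 and 155 normalized reads per library. Both PTPRC and COL3A1 were at 0 in every library, and 4 of the 8 had at most 3 reads in any library. Tested markers of this list were COL1A1, a fibrillar collagen gene, and CD68, a lysosomal glycoprotein gene. At 0 h both were called higher in depleted cells, COL1A1 with a log2 fold change of 1.51 (adjusted p = 3.12e-05) and CD68 with 1.09 (adjusted p = 0.00116). At 16 h neither was called by limma, and both passed the adjusted p and an unadjusted p under 0.05. After TNF-α CD68 was called higher in control cells, at 1.077 (adjusted p = 0.00314), and in depleted cells it lay at 0.73 (adjusted p = 0.0351). COL1A1 lay at −0.37 in control cells (adjusted p = 0.280) and −0.95 in depleted cells (adjusted p = 0.00567). The summed level of the list was 55.9 and 54.5 in control cells at 0 h, 76.4 and 68.3 in control cells at 16 h, 129 and 155 in depleted cells at 0 h, and 122 and 127 in depleted cells at 16 h. The most abundant genes were thus COL1A1 in the 0 h libraries and CD68 in the 16 h libraries, and their part in the results for the members was not tested.

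The 36 members lie on 15 chromosomes, with the most on chromosome 1 and chromosome 6, which hold 5 each. Chromosome 12 holds MDM2, APAF1, TRIAP1 and KITLG, chromosome 5 holds PLK2, CCNG1, CYFIP2 and CMBL, and chromosome 19 holds BAX, BBC3 and GDF15. In control cells at 0 h the members ranged over several orders of magnitude in level per length. Per kilobase of exon, the highest mean levels were those of PERP at 687 normalized reads, BAX at 679, CCNG1 at 553, PHLDA3 at 446 and CDKN1A at 420.3. At the low end were CYFIP2 at 11.3, CMBL at 9.38, TP53INP1 at 8.96, ACER2 at 3.89, KITLG at 2.78 and SPATA18 at 0.165. The cell cycle inhibitor gene CDKN1A and the death effector gene BAX, both classical p53 targets, thus ranked 5 and 2 among the 36 members before any TNF-α. Their rank over all genes is not given here.

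**Figure D1:**
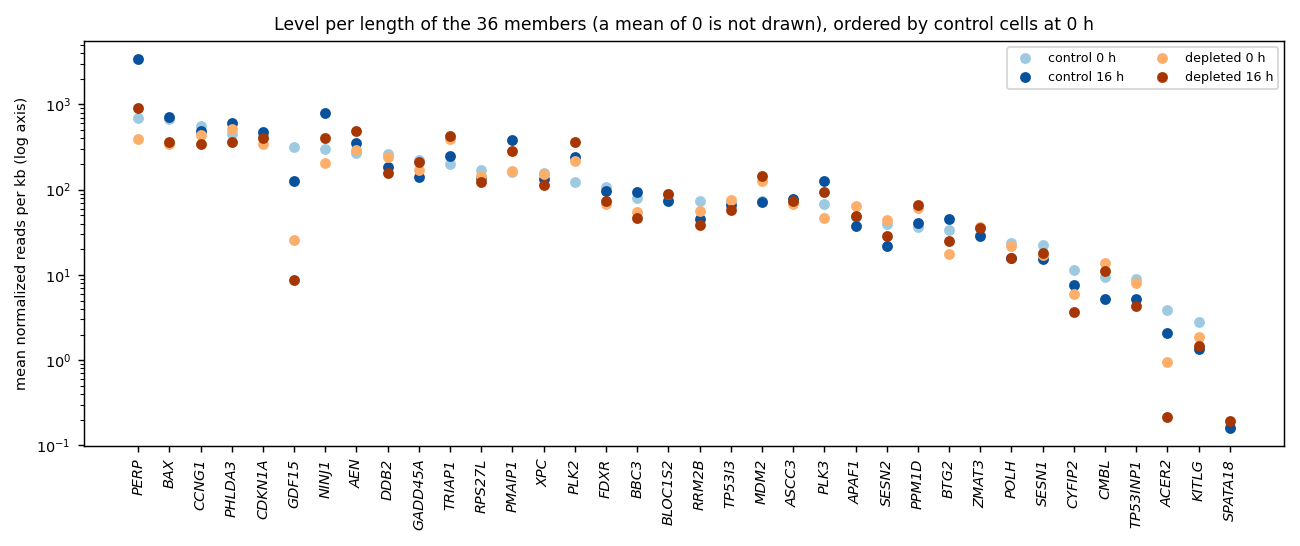
Mean normalized reads per kilobase of exon for the 36 members in the 4 groups (log axis), ordered by their level in control cells at 0 h. PERP leads at 687 normalized reads per kilobase and reached 3391 in control cells at 16 h, whereas SPATA18 lies at 0.165.

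Before TNF-α, most of the p53 targets, like most of all genes tested, were not called between the lines. At 0 h, 2 of 35 members were called lower, GDF15 and ACER2, where 9.55% of all genes tested were called lower. ACER2 rested on few reads, control cells raised its mean for the filter, and its call was lost under several settings, as given below. At the same time 0 members were called higher by limma, where 5.89% of all genes were. At an unadjusted p under 0.05, 7 members were higher, where 30.1% of all genes were, and both edgeR and DESeq2 also called 0 higher. TRIAP1 lay past 2-fold higher without replicate A of control cells at 0 h (1.03) or of depleted cells at 0 h (1.01). By the adjusted p alone, 7 members were higher and 14 were lower, where 27.3% and 25.2% of all genes were. The median log2 fold change of the members was −0.14, beside 0.03 over all genes tested.

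After 16 h of TNF-α, 2 members were called higher in depleted cells, MDM2 and CMBL, where 5.03% of all genes were called higher. Lower were 5 members, GDF15, ACER2, PERP, BBC3 and CYFIP2, where 10.2% of all genes were called lower. By the adjusted p alone, 11 members were higher and 15 were lower at 16 h, where 24.9% and 26.5% of all genes were. The median over the members was −0.23, beside −0.01 over all genes. These counts are descriptions set beside those of all genes, and no test of the list was made. Depletion at 0 h and at 16 h rests on different libraries, but both comparisons are between the same 2 lines.

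**Figure D2:**
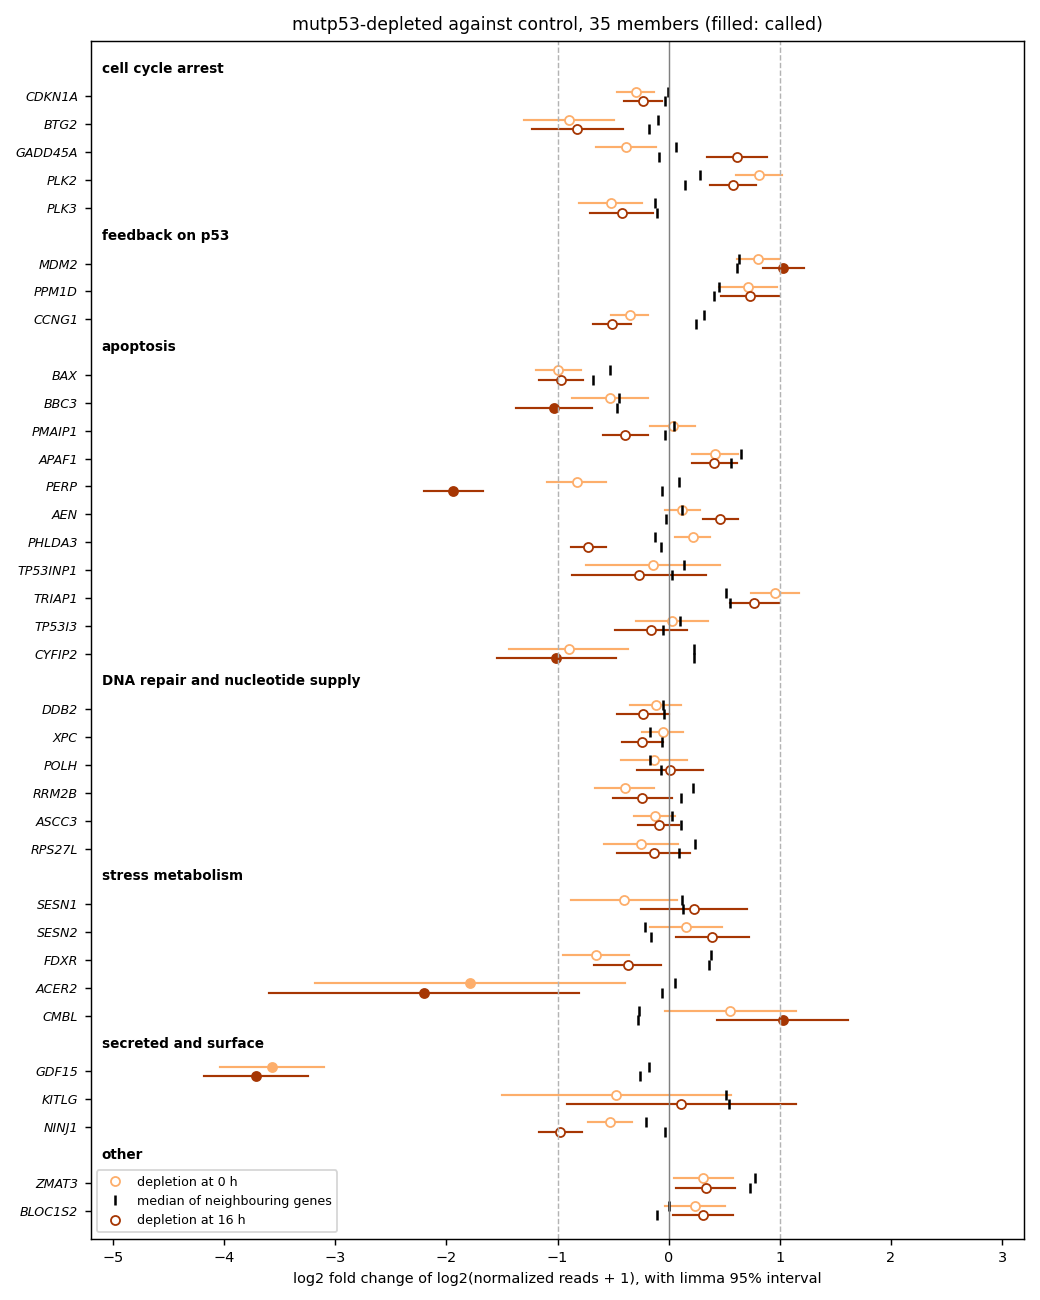
Log2 fold change of mutp53-depleted against control cells at 0 h and at 16 h for 35 members grouped by role, with limma 95% intervals, filled where called; ticks mark the median of the neighbouring genes and dashed lines mark 2-fold. GDF15 stands furthest from 0, at −3.57 and −3.71, and MDM2 reached 1.03 at 16 h, with neighbours at 0.61.

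In control cells, 3 of 35 members were called higher at 16 h, PERP, PMAIP1 and NINJ1, where 2.97% of all genes tested were, and GDF15 was called lower (1 of 35), where 4.27% of all genes were. By the adjusted p alone, 8 members were higher and 8 lower in control cells, where 11.1% and 15.2% of all genes were. In depleted cells PERP was called higher (1 of 35) and GDF15 lower (1 of 35), where 1.86% and 4.50% of all genes were. By the adjusted p alone, 7 members were higher and 10 lower in depleted cells, where 9.80% and 16.9% of all genes were. These comparisons share their libraries with the depletion comparisons. Median log2 fold changes after TNF-α were −0.14 in control cells and −0.03 in depleted cells over the members, beside −0.05 and −0.06 over all genes.

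Whether the response to TNF-α differed between the lines was tested as an interaction, the log2 fold change of depleted against control cells at 16 h less that at 0 h. At an adjusted p under 0.05, 3 of 35 members passed, GADD45A, PERP and PHLDA3, where 2.86% of all genes tested passed (424 of 14800). At an unadjusted p under 0.05, 7 members passed, where 13.5% of all genes did. The median interaction was 0.02 over the members and −0.03 over all genes.

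**Figure D3:**
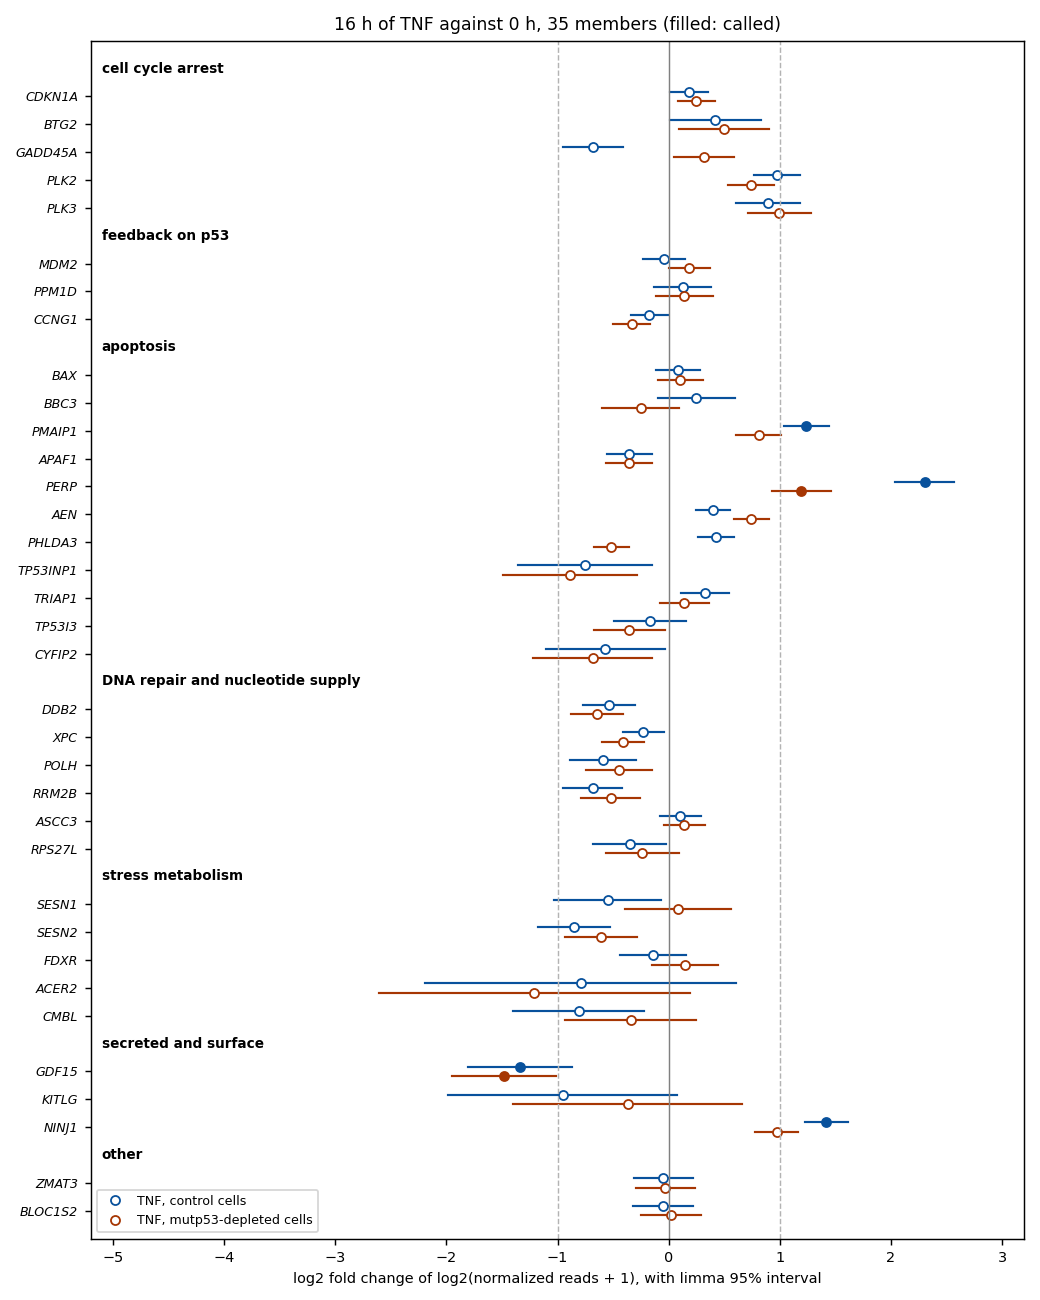
Log2 fold change after 16 h of TNF-α in control and in mutp53-depleted cells for 35 members grouped by role, with limma 95% intervals, filled where called; dashed lines mark 2-fold. PERP reached 2.30 in control and 1.19 in depleted cells, and GDF15 lay at −1.33 and −1.48.

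Among the 5 members that act in cell cycle arrest, each passed the adjusted p in both depletion comparisons with a change under 2-fold. At 0 h, 1 of them was higher and 4 were lower in depleted cells, where 27.3% and 25.2% of all genes were, with a median of −0.39. At 16 h 2 were higher and 3 lower, where 24.9% and 26.5% of all genes were, with a median of −0.23. CDKN1A encodes p21, the inhibitor of cyclin-dependent kinases through which wild-type p53 stops the cell cycle. It had 959 and 944 normalized reads in the control libraries at 0 h, 1136 and 1030.0 at 16 h, 799 and 749 in depleted cells at 0 h and 875 and 968 at 16 h. The control libraries were the higher at each time and did not overlap with the depleted libraries of that time. The log2 fold change in depleted cells was −0.30 at 0 h (standard error 0.08, limma adjusted p = 0.00454) and −0.23 at 16 h (standard error 0.08, adjusted p = 0.0220), with neighbouring genes at −0.03 at 16 h. After TNF-α it was 0.18 in control cells (adjusted p = 0.104) and 0.25 in depleted cells (adjusted p = 0.0277), with an interaction of 0.07 (adjusted p = 0.868).

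GADD45A, a stress sensor that binds cell cycle and repair proteins, responded to TNF-α in a different way in the 2 lines. It had 312 and 300.0 normalized reads in the control libraries at 0 h, 165 and 219 at 16 h, 225 and 244 in depleted cells at 0 h and 290.1 and 294 at 16 h. Control cells were the higher at 0 h and depleted cells at 16 h, without overlap at either time. The log2 fold change after TNF-α was −0.68 in control cells (standard error 0.13, limma adjusted p = 5.55e-04) and 0.32 in depleted cells (standard error 0.13, adjusted p = 0.0780), and the interaction was 1.00 (adjusted p = 0.00377). In depleted against control cells it was −0.39 at 0 h (adjusted p = 0.0177) and 0.61 at 16 h (adjusted p = 5.89e-04), beside neighbouring genes at 0.07 and −0.09.

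The other members of this group were the antiproliferative gene BTG2 and the stress-induced polo-like kinase genes PLK2 and PLK3. BTG2 was lower in depleted cells at both times, with log2 fold changes of −0.90 (adjusted p = 7.19e-04) and −0.82 (adjusted p = 0.00159). PLK2 was higher, with 0.81 at 0 h (adjusted p = 1.63e-06) and 0.58 at 16 h. PLK3 was lower, with −0.52 at 0 h (adjusted p = 0.00325) and −0.42 at 16 h (adjusted p = 0.0139). Both kinase genes had more reads after TNF-α and lay close to the 2-fold threshold, with PLK2 at 0.97 in control cells (adjusted p = 4.82e-07) and 0.74 in depleted cells, and PLK3 at 0.89 and 0.99 (adjusted p = 2.08e-05 in depleted cells). The call therefore depended on the setting. PLK2 was called in control cells by edgeR (1.03), by DESeq2 (1.03), after rescaling by the median ratio (1.02), without replicate B of control cells at 0 h (1.11) and without replicate A of control cells at 16 h (1.05). PLK3 was called in depleted cells by edgeR (1.01), by DESeq2 (1.03), after rescaling (1.06), without replicate A of depleted cells at 0 h (1.14) and without replicate A of depleted cells at 16 h (1.00).

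Of the 3 members that feed back on p53, 2 were higher and 1 was lower in depleted cells by the adjusted p at each time, where 27.3% and 25.2% of all genes were at 0 h and 24.9% and 26.5% at 16 h. MDM2, the ubiquitin ligase that marks p53 for degradation, had 507 and 591 normalized reads in the control libraries at 0 h, 499 and 568 at 16 h, 975 and 939 in depleted cells at 0 h and 1083 and 1096 at 16 h. The 4 depleted libraries were each higher than the 4 control libraries, and TNF-α left the levels of control cells overlapping. Depleted cells were higher by 0.80 at 0 h (standard error 0.09, limma adjusted p = 5.70e-07), under 2-fold, and by 1.03 at 16 h (standard error 0.09, adjusted p = 2.27e-08), which was called. The genes around MDM2 on chromosome 12, 25 tested genes on either side, were themselves higher in depleted cells by a median of 0.64 at 0 h and 0.61 at 16 h. With the neighbour median removed from the depleted libraries, the 16 h value was 0.42 and MDM2 was not called. Without replicate A of control cells at 16 h the value was 0.94, under 2-fold. Whether the shift of this chromosome region accounts for the higher MDM2 was not tested.

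PPM1D is a phosphatase gene whose product acts on p53 and its kinases. It was higher in depleted cells by 0.71 at 0 h (limma adjusted p = 9.25e-05) and 0.73 at 16 h. The neighbours of PPM1D were higher too, by medians of 0.45 at 0 h and 0.40 at 16 h. CCNG1, the gene of cyclin G, was lower, with −0.35 at 0 h (adjusted p = 0.00113) and −0.51 at 16 h (adjusted p = 3.13e-05). Neighbouring genes of the feedback members lay above 0 in each case, so CCNG1 went the other way from its neighbours. After TNF-α the 3 members lay between −0.18 and 0.12 in control cells and between −0.33 and 0.19 in depleted cells, and CCNG1 in depleted cells passed the adjusted p (0.00425).

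**Figure D4:**
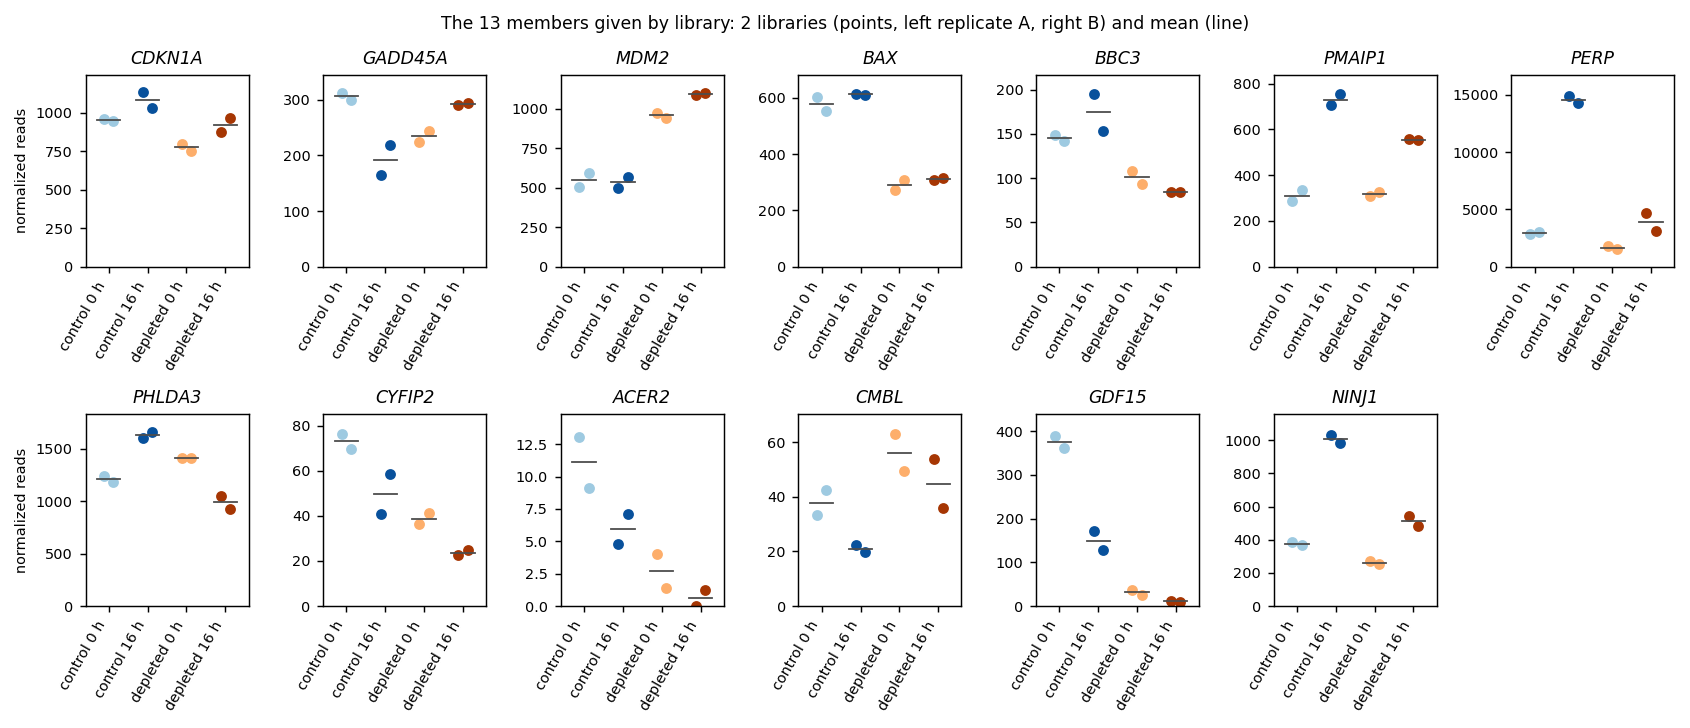
Normalized reads of 13 members in each of the 8 libraries (points, replicate A left and B right) with the group mean (line), on axes that start at 0. GDF15 fell from 388 and 362 in control cells at 0 h to 36.2 and 26.0 in depleted cells, and PERP reached 14869 and 14275 in control cells at 16 h.

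Apoptosis was the largest group, with 11 members. In depleted cells at 0 h, 3 were higher and 4 lower by the adjusted p, where 27.3% and 25.2% of all genes were, with a median of 0.03. At 16 h 3 were higher and 6 lower, where 24.9% and 26.5% of all genes were, with a median of −0.39. The members called after depletion were PERP, BBC3 and CYFIP2, each lower at 16 h, where 10.2% of all genes were called lower. After TNF-α, PERP and PMAIP1 were called higher in control cells, where 2.97% of all genes were. By the adjusted p, 5 members were higher and 1 lower there, where 11.1% and 15.2% of all genes were, with a median of 0.25. In depleted cells PERP was called higher, where 1.86% of all genes were. By the adjusted p, 3 members were higher and 3 lower in depleted cells, where 9.80% and 16.9% of all genes were, with a median of −0.25.

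PERP encodes a tetraspan membrane protein of desmosomes that also acts in p53-dependent apoptosis. It had 2894 and 3013 normalized reads in the control libraries at 0 h, 14869 and 14275 at 16 h, 1803 and 1536 in depleted cells at 0 h and 4684 and 3080.3 at 16 h. Levels were higher at 16 h than at 0 h in both lines, and higher in control than in depleted cells at both times, with no overlap. The mean was 4.93-fold higher after TNF-α in control cells (log2 fold change 2.30 with a standard error of 0.13, limma adjusted p = 1.39e-10). In depleted cells it was 2.33-fold higher (1.19, standard error 0.13, adjusted p = 1.12e-06). The interaction was −1.11 (standard error 0.18, adjusted p = 0.00128). In depleted against control cells PERP was lower by less than 2-fold at 0 h (−0.83, adjusted p = 2.35e-05) and 3.75-fold lower at 16 h (−1.94, adjusted p = 6.20e-10), while its neighbours on chromosome 6 lay at 0.09 and −0.06. The depleted libraries at 16 h differed from each other by more than those of the other groups, and without replicate A of that group the response of depleted cells was 0.89, under 2-fold.

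PMAIP1 encodes NOXA, a BH3-only protein that frees the mitochondrial death effectors. It had 285 and 333 normalized reads in the control libraries at 0 h, 705 and 754 at 16 h, 308 and 325 in depleted cells at 0 h and 558 and 553 at 16 h. The 16 h libraries were higher than the 0 h libraries in both lines, the 2 lines overlapped at 0 h, and control cells were the higher at 16 h. TNF-α raised PMAIP1 in control cells by 1.24 (standard error 0.10, limma adjusted p = 1.57e-08). In depleted cells the change was 0.81 (standard error 0.10, adjusted p = 4.57e-06), under 2-fold, and the interaction was −0.43 (adjusted p = 0.119). Depleted cells differed from control cells by 0.04 at 0 h (adjusted p = 0.776) and −0.39 at 16 h (adjusted p = 0.00234).

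BBC3 encodes PUMA, another BH3-only protein. It had 149 and 142 normalized reads in the control libraries at 0 h, 195 and 154 at 16 h, 109 and 93.2 in depleted cells at 0 h and 84.7 and 83.9 at 16 h. Each depleted library was lower than each control library. Depleted cells differed from control cells by −0.53 at 0 h (standard error 0.16, limma adjusted p = 0.0112) and −1.03 at 16 h (standard error 0.16, adjusted p = 3.68e-05), which was called. Neighbouring genes on chromosome 19 were lower too, by a median of −0.44 at 0 h and −0.46 at 16 h. The 16 h call was lost with the neighbour median removed (−0.57), with a pseudocount of 5 (−1.0 on that scale, just under 2-fold) and without replicate A of control cells at 16 h (−0.86). The interaction of BBC3 was −0.50 (adjusted p = 0.345).

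BAX, which permeabilizes the outer mitochondrial membrane, stood at the 2-fold threshold. It had 602 and 553 normalized reads in the control libraries at 0 h, 615 and 609 at 16 h, 272 and 309 in depleted cells at 0 h and 308 and 316 at 16 h. Each of the 4 control libraries was well above each of the 4 depleted libraries, and TNF-α moved neither line far, by 0.08 in control and 0.11 in depleted cells. In depleted cells BAX was lower by 1.99-fold at 0 h (log2 fold change −0.99 with a standard error of 0.10, limma adjusted p = 9.59e-08) and 1.96-fold at 16 h (−0.97, standard error 0.10, adjusted p = 1.19e-07), and was not called. At 0 h it was called by edgeR (−1.05), by DESeq2 (−1.03), after rescaling by the median ratio (−1.01), without replicate B of control cells at 0 h (−1.05) and without replicate B of depleted cells at 0 h (−1.08). Its neighbours on chromosome 19 had medians of −0.53 at 0 h and −0.68 at 16 h, the lowest of any member at both times. Less its neighbours, BAX lay at −0.46 and −0.29.

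PHLDA3, a pleckstrin homology domain protein that restrains AKT, went in opposite directions after TNF-α in the 2 lines. It had 1243 and 1185 normalized reads in the control libraries at 0 h, 1603 and 1659 at 16 h, 1414 and 1411 in depleted cells at 0 h and 1047 and 928 at 16 h. After TNF-α its libraries were higher in control cells and lower in depleted cells, with no overlap between the times in either line. The log2 fold changes were 0.43 in control cells (standard error 0.08, limma adjusted p = 2.89e-04) and −0.52 in depleted cells (standard error 0.08, adjusted p = 4.25e-05), and the interaction was −0.94 (standard error 0.11, adjusted p = 6.45e-05). Depleted against control cells lay at 0.22 at 0 h (adjusted p = 0.0203) and −0.73 at 16 h (adjusted p = 2.25e-07), beside neighbours at −0.12 and −0.07.

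CYFIP2, a gene of the actin-regulating WAVE complex, had 76.2 and 69.7 normalized reads in the control libraries at 0 h, 40.6 and 58.3 at 16 h, 36.2 and 41.1 in depleted cells at 0 h and 22.6 and 24.7 at 16 h. Depleted libraries were below the control libraries of the same time. The log2 fold change was −0.90 at 0 h (standard error 0.26, limma adjusted p = 0.00625), under 2-fold, and −1.01 at 16 h (standard error 0.26, adjusted p = 0.00276), which was called. The neighbours on chromosome 5 were higher, by 0.23 and 0.22, and less this median the 0 h value was −1.13, which was called. The 16 h call was lost with a pseudocount of 5 (−0.91), without replicate B of control cells at 16 h (−0.76) and without replicate A of depleted cells at 16 h (−0.95).

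The other 5 apoptosis members were not called by limma in any of the 4 comparisons. TRIAP1, an inhibitor of apoptosis induced by p53, was higher in depleted cells by 0.96 at 0 h (limma adjusted p = 4.02e-07) and 0.77 at 16 h, beside neighbours at 0.52 and 0.55. It was called at 0 h without replicate A of control cells at 0 h (1.03) and without replicate A of depleted cells at 0 h (1.01). APAF1, the scaffold of the apoptosome, also on chromosome 12, was higher by 0.42 at 0 h (adjusted p = 0.00151) and 0.41 at 16 h (adjusted p = 0.00169), below the medians of its neighbours, 0.65 and 0.56. After TNF-α it was lower by −0.35 in control cells (adjusted p = 0.0112) and −0.36 in depleted cells (adjusted p = 0.0105). AEN, an apoptosis-enhancing nuclease, differed between the lines by 0.12 at 0 h (adjusted p = 0.183) and 0.46 at 16 h and was higher after TNF-α by 0.40 in control cells (adjusted p = 5.08e-04) and 0.74 in depleted cells (adjusted p = 5.99e-07). TP53INP1, a stress-induced nuclear protein gene, lay at −0.76 after TNF-α in control cells (adjusted p = 0.0602), which did not pass. In depleted cells TP53INP1 was lower by the adjusted p, at −0.88 (adjusted p = 0.0284). Without replicate A of depleted cells at 16 h its value there was −1.16, which was called. TP53I3, a quinone oxidoreductase, passed the adjusted p in none of the 4 comparisons, and lay between −0.35 and 0.03.

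The 250 bases before the transcription start were searched on both strands for the p53 half-site, a decamer that occurs as a pair in p53 response elements, and for the κB site bound by NF-κB, both by consensus and without mismatches. Starts and sequences are those of RefSeq on GRCh38.p14, a different build from the hg19 coordinates of the expression table. Of the 36 members, 30 had an entry in the set of promoters used here, with 42 promoters. GADD45A, PHLDA3, TP53INP1, RRM2B, ASCC3 and CMBL had none in that set, although each is a RefSeq gene. Across the 35116 promoters of that set, 5.57% held a half-site and 5.21% held a κB site. Among the members, 5 of 42 promoters held a half-site, those of AEN, FDXR, PLK2, RPS27L and SESN1, and 1 held a κB site, that of SESN2. A match is a description of the letters and does not show binding, and p53 response elements often lie outside this window. A site inside the window that departs from the consensus is missed by this search, so the lack of a match does not show that a site is absent.

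Promoters of the 3 members that TNF-α raised in control cells held no exact match to either consensus. They were those of PERP (chr6:138107420-138107669, minus strand), PMAIP1 (chr18:59899746-59899995, plus strand) and NINJ1 (chr9:93134252-93134501, minus strand). That of AEN (chr15:88621090-88621339, plus strand) is shown for its half-site, in capitals, which begins 34 bases before the start. Each is 250 bases, written 5′ to 3′ on the strand of the gene, upstream of the first exon.
PERP: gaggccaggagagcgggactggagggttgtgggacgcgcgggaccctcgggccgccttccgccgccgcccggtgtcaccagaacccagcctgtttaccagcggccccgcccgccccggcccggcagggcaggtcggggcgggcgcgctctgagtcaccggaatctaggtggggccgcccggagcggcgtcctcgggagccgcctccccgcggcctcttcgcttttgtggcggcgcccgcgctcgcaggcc
PMAIP1: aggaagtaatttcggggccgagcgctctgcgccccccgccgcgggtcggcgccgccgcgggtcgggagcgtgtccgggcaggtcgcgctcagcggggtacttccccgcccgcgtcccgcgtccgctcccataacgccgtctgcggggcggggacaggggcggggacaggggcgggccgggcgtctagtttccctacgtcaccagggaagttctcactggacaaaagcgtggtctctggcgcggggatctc
NINJ1: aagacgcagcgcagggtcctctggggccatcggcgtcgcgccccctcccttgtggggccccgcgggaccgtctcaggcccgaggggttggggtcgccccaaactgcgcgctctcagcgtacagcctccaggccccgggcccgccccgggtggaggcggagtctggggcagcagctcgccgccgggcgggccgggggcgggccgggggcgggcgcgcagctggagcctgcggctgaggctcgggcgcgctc
AEN: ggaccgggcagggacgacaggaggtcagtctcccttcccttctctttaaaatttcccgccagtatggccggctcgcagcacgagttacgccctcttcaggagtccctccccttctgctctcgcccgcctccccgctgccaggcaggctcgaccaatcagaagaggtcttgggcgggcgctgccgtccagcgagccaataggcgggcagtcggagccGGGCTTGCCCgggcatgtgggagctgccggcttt

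DNA repair and nucleotide supply had 6 members. Of all genes, limma called 5.89% higher and 9.55% lower after depletion at 0 h, and 5.03% and 10.2% at 16 h. After TNF-α these shares were 2.97% and 4.27% in control cells and 1.86% and 4.50% in depleted cells. In the 4 comparisons none of the 6 members was called by limma, edgeR or DESeq2. At an unadjusted p under 0.05, 1 passed after depletion at 0 h, 1 at 16 h, 5 after TNF-α in control cells and 4 in depleted cells, where 57.6%, 56.5%, 36.6% and 37.5% of all genes passed. In depleted cells, 1 was lower by the adjusted p at 0 h and 1 at 16 h, where 25.2% and 26.5% of all genes were, with medians of −0.13 and −0.18. At 0 h this was RRM2B, a ribonucleotide reductase subunit gene, at −0.40 (limma adjusted p = 0.0140), and at 16 h it was XPC, which recognizes DNA lesions, at −0.24 (adjusted p = 0.0316). After TNF-α the medians were −0.44 in control and −0.43 in depleted cells, 3 and 4 of the 6 members were lower by the adjusted p, where 15.2% and 16.9% of all genes were, and ASCC3 lay above 0, at 0.10 and 0.14. DDB2, a damage recognition gene of nucleotide excision repair, lay at −0.53 in control cells (adjusted p = 0.00134) and −0.64 in depleted cells (adjusted p = 2.43e-04). POLH, a translesion polymerase gene, lay at −0.59 and −0.45, and RRM2B at −0.68 and −0.52. ASCC3, a helicase gene of alkylation repair, and RPS27L, a ribosomal protein gene, passed the adjusted p in no comparison. RPS27L resembles RPS27, and how reads that match both were treated was not given in the sources, so its values of between 119 and 186 normalized reads are uncertain.

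Stress metabolism had 6 members, of which 5 were tested. SPATA18, a gene of mitochondrial quality control, had at most 2 reads in any library, and no fold change is given. In control cells after TNF-α the 5 tested members had log2 fold changes between −0.85 and −0.14, with a median of −0.79, and 2 were lower by the adjusted p, where 15.2% of all genes were. These were SESN2, a sestrin that restrains mTORC1, at −0.85 (limma adjusted p = 4.00e-04), and CMBL. In depleted cells the values after TNF-α ran from −1.21 to 0.145, 2 of the 5 above 0, with a median of −0.34, and 1 was lower by the adjusted p, where 16.9% of all genes were. This was SESN2, which lay at −0.61 there (adjusted p = 0.00648). Its relative SESN1 lay at −0.55 in control cells (adjusted p = 0.0847) and 0.08 in depleted cells (adjusted p = 0.835), with an interaction of 0.63 (adjusted p = 0.417). FDXR, a mitochondrial ferredoxin reductase gene, was lower in depleted cells by −0.66 at 0 h (adjusted p = 7.89e-04) and −0.37 at 16 h (adjusted p = 0.0377), and was called at 0 h with the neighbour median removed (−1.03).

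ACER2, an alkaline ceramidase gene, rested on few reads. It had 13.1 and 9.1 normalized reads in the control libraries at 0 h, 4.8 and 7.1 at 16 h, 4.0 and 1.4 in depleted cells at 0 h and 0.0 and 1.2 at 16 h. The depleted libraries were below the control libraries of the same time. The filter took the mean over all libraries, which the control cells raised, as the depleted means were 2.70 at 0 h and 0.615 at 16 h. With no filter ACER2 was also called lower at both times (adjusted p = 0.0240 and 0.00772). At 0 h the 2 control libraries held 24 reads and the 2 depleted libraries 7, a ratio of 3.74 at equal depth, with an exact 95% interval from 1.56 to 10.3. At 16 h they held 10 reads and 1 read, a ratio of 11.5 with an interval from 1.64 to 500.4. These intervals cover counting error only. By limma the log2 fold change was −1.79 at 0 h (standard error 0.66, adjusted p = 0.0307) and −2.20 at 16 h (standard error 0.66, adjusted p = 0.00968), with neighbours at 0.06 and −0.06.

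Both calls of ACER2 were lost under several settings. DESeq2 gave −1.96 at 0 h (adjusted p = 0.136) and −3.52 at 16 h (adjusted p = 0.0789), and with a minimum mean of 10 the gene was not tested. The 0 h call was lost with a pseudocount of 0.1 (−2.16, adjusted p = 0.153). It was also lost without replicate A of control cells at 0 h (−1.55), without replicate B of that group (−2.03) and without replicate B of depleted cells at 0 h (−1.25). At 16 h it was lost with a pseudocount of 5 (−0.97), without replicate B of control cells at 16 h (−1.96) and without replicate A of depleted cells at 16 h (−1.62). Over its alternatives the adjusted p at 0 h ran up to 0.221.

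CMBL, a hydrolase gene, had 33.4 and 42.4 normalized reads in the control libraries at 0 h, 22.2 and 19.9 at 16 h, 63.0 and 49.4 in depleted cells at 0 h and 53.7 and 35.8 at 16 h. Depleted libraries were above the control libraries of the same time. Depleted cells were higher by 0.56 at 0 h (standard error 0.28, limma adjusted p = 0.106), which did not pass, and by 1.02 at 16 h (standard error 0.28, adjusted p = 0.00509), which was called, while neighbours on chromosome 5 lay at −0.26 and −0.27. The 16 h call was lost with a pseudocount of 5 (0.91), without replicate B of control cells at 16 h (0.95) and without replicate A of depleted cells at 16 h (0.74). TNF-α gave −0.81 in control cells (adjusted p = 0.0403) and −0.34 in depleted cells (adjusted p = 0.412), with an interaction of 0.47 (adjusted p = 0.677).

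The secreted and surface members were GDF15, KITLG and NINJ1. GDF15, a stress-induced cytokine of the TGF-β superfamily, had 388 and 362 normalized reads in the control libraries at 0 h, 171 and 128 at 16 h, 36.2 and 26.0 in depleted cells at 0 h and 10.9 and 9.9 at 16 h. The 4 groups did not overlap, and levels were lower after depletion and lower after TNF-α. In depleted cells GDF15 was 12.1-fold lower at 0 h (log2 fold change −3.57 with a standard error of 0.22, limma adjusted p = 3.71e-10) and 14.4-fold lower at 16 h (−3.71, standard error 0.22, adjusted p = 2.12e-10). After TNF-α it was 2.51-fold lower in control cells (−1.33, standard error 0.22, adjusted p = 1.68e-04) and it also fell in depleted cells (−1.48, standard error 0.22, adjusted p = 6.44e-05), with an interaction of −0.15 (adjusted p = 0.900). Its neighbours on chromosome 19 lay at −0.18 at 0 h and −0.26 at 16 h.

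NINJ1, a surface protein that mediates rupture of the plasma membrane in dying cells, had 389 and 365 normalized reads in the control libraries at 0 h, 1034 and 985 at 16 h, 270.1 and 252 in depleted cells at 0 h and 543 and 485 at 16 h. TNF-α libraries were the higher in both lines, and control libraries were the higher at both times. TNF-α raised NINJ1 by 1.42 in control cells (standard error 0.09, limma adjusted p = 1.44e-09). In depleted cells it lay at 0.97 (standard error 0.09, adjusted p = 2.91e-07), just under 2-fold, and the interaction was −0.45 (adjusted p = 0.0824). The interaction passed with the replicate block (adjusted p = 0.0442) and with the neighbour median removed (−0.61, adjusted p = 0.0117). That response was called in depleted cells by edgeR (1.03), by DESeq2 (1.04), after rescaling (1.04), without replicate A of depleted cells at 0 h (1.02) and without replicate B of depleted cells at 16 h (1.05). Depleted against control cells lay at −0.53 at 0 h (adjusted p = 1.01e-04) and −0.97 at 16 h (adjusted p = 7.41e-08). The latter was called without replicate B of control cells at 16 h (−1.01) and without replicate A of depleted cells at 16 h (−1.06).

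KITLG, the ligand of the KIT receptor, had between 4.8 and 19.6 normalized reads and passed the adjusted p of limma in no comparison. In depleted cells at 0 h its reads numbered 22, against 34 in control cells, a ratio of 1.69 for control to depleted cells with an exact 95% interval from 0.957 to 3.02. In control cells they numbered 34 at 0 h and 12 after TNF-α, a ratio of 2.42 with an interval from 1.22 to 5.12, which covers counting error only, and the limma log2 fold change was −0.95 (adjusted p = 0.172). The 2 members outside these groups were ZMAT3, an RNA-binding zinc finger gene, and BLOC1S2, a subunit gene of a complex for lysosome-related organelles. ZMAT3 lay at 0.31 in depleted cells at 0 h (limma adjusted p = 0.0458) and 0.33 at 16 h (adjusted p = 0.0354), below the medians of its neighbours, 0.78 and 0.73. BLOC1S2 lay at 0.24 at 0 h (adjusted p = 0.130) and 0.31 at 16 h (adjusted p = 0.0495). After TNF-α both lay between −0.05 and 0.02 in the 2 lines.

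Over the 22 members not given by library, log2 fold changes in depleted cells ranged from −0.90 for BTG2 to 0.96 for TRIAP1 at 0 h and from −0.82 to 0.77, for the same genes, at 16 h. At 0 h 5 of them were higher and 5 lower by the adjusted p, where 27.3% and 25.2% of all genes were, and at 16 h 8 were higher and 5 lower, where 24.9% and 26.5% of all genes were. After TNF-α they ranged from −0.95 for KITLG to 0.97 for PLK2 in control cells and from −0.88 for TP53INP1 to 0.99 for PLK3 in depleted cells. Interactions ranged from −0.23 for PLK2 to 0.63 for SESN1, and the smallest adjusted p among them was that of AEN at 0.102, which passed with the neighbour median removed (0.49, adjusted p = 0.0142).

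Regional shifts between the lines touched some members. In depleted cells, the median of the neighbouring genes was at least 0.5 away from 0 for 6 of 35 members at 0 h and for 6 at 16 h, and over all genes tested the same held for 15.0% and 14.1%. The neighbour medians of the members ran from −0.53 for BAX to 0.78 for ZMAT3 at 0 h and from −0.68 to 0.73, for the same genes, at 16 h. For the responses to TNF-α, which are within a line, the neighbour median reached that size for 0 members. Over all genes tested it did so for 0.0135% in control cells and 0.00676% in depleted cells. With each member's neighbour median taken off, the median over the members was −0.28 at 0 h and −0.23 at 16 h, beside 0.00 and 0.00 over all genes.

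Other genes of the p53 pathway were counted from fixed lists. Of 23 relatives and regulators of p53, 22 were tested, and TP63 was at 0 in every library. At 0 h 1 was called lower in depleted cells, PPP1R13L, an inhibitor of p53 known as iASPP, at −1.12 (limma adjusted p = 2.58e-08). At 16 h 2 were called lower, PPP1R13L at −1.06 and the p53 relative TP73 at −1.29 (adjusted p = 4.43e-07). Of all genes, 9.55% were called lower at 0 h and 10.2% at 16 h. TP73 had 305 and 289 normalized reads in the control libraries at 0 h, 226 and 202 at 16 h, 166 and 151 in depleted cells at 0 h and 78.8 and 96.3 at 16 h. These libraries were lower in depleted cells at both times. PPP1R13L lies on chromosome 19, as do BAX and BBC3, with neighbours at −0.64 at both times. The medians over this list were 0.22 at 0 h and 0.10 at 16 h. After TNF-α, 4 of the 22 passed the adjusted p in control cells and 5 in depleted cells, where 26.3% and 26.7% of all genes passed.

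Of 30 further p53 targets that are not members, 27 were tested. At 0 h, 2 were called higher and 4 lower in depleted cells, where 5.89% and 9.55% of all genes were, with a median of −0.22. At 16 h 2 were called higher and 5 lower, where 5.03% and 10.2% of all genes were, with a median of −0.31. By limma the largest called differences at 0 h were those of CD82, a tetraspanin and metastasis suppressor, at −2.15 (limma adjusted p = 7.70e-12), SLC12A4, a potassium chloride cotransporter gene, at −1.61, and SFN, the 14-3-3 sigma gene, at −1.46. At 16 h they were those of VDR, the vitamin D receptor gene, at −1.51 (adjusted p = 7.69e-12), TIGAR, a regulator of glycolysis, at 1.38, and CD82 at −1.36. TIGAR lies on chromosome 12 with neighbours at 0.85. After TNF-α, 4 of the 27 were called higher in control cells, where 2.97% of all genes were, and 2 were called higher and 1 lower in depleted cells, where 1.86% and 4.50% of all genes were, with medians of 0.11 and 0.22. Of these 27, 2 passed the interaction with a positive value and 4 with a negative value, where 2.86% of all genes passed.

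All 16 genes of a list of cyclin-dependent kinase inhibitors and cyclins, kinases and partners of G1 were tested. At 0 h, 2 were called higher and 1 lower in depleted cells, where 5.89% and 9.55% of all genes were, with a median of 0.20. The inhibitor genes CDKN2B, at 1.27 (limma adjusted p = 2.13e-06), and CDKN1B, at 1.07 (adjusted p = 1.60e-09), were higher and the cyclin gene CCNE2 was lower (adjusted p = 8.08e-05), just past 2-fold. The neighbours of CDKN1B on chromosome 12 lay at 1.14. At 16 h, 1 was called higher, CCNE1 at 1.19 with neighbours at 0.68, and 1 was called lower, the inhibitor gene CDKN1C at −1.25, with a median over the list of 0.10, where 5.03% and 10.2% of all genes were called higher and lower. After TNF-α, 6 of the 16 passed the adjusted p in control cells and 9 in depleted cells, where 26.3% and 26.7% of all genes passed, and 1 was called lower in depleted cells, where 4.50% of all genes were.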

How the data were processed

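The 8 mRNA-seq libraries of SW480 cells were analysed, and the ChIP-seq and GRO-seq samples were not analysed here. The authors mapped reads with STAR and counted those on RefSeq exons, on the strand of the gene, with HOMER. The submitters' processing notes also name edgeR, Bowtie2 and deepTools and the build hg38, whereas the header and the gene coordinates of the table give hg19. The signal values the authors deposited are reads multiplied by a factor for each library, which gives all libraries the same total over the listed genes. Reads on genes were 74.5% to 79.5% of each header total. The table also holds the authors' log2 fold change, p and adjusted p for 4 comparisons, which were not used. Members and lists were chosen with earlier results of these data known, and a symbol was the first part of a gene's annotation.

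Values were tested as log2(normalized reads + 1) with limma 3.58.1 (lmFit, contrasts.fit, eBayes with trend) in R 4.3.3, on the means of the 4 groups, after a filter at a mean of 2.5. Of the 26457 genes, 18934 had a read and 14800 were tested. Calls required an adjusted p under 0.05 together with 2-fold or more, and the interaction needed the adjusted p alone. Dividing by the value of 1 read gave whole reads within 0.1 reads for 100% of the values, and tests on these reads called 2336 genes with edgeR 4.0.16 (quasi-likelihood, TMM) and 1955 with DESeq2 1.42.0 after depletion at 0 h, beside 2285 with limma. At 16 h they called 2249 and 1918, beside 2255.

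Values in every library were given for each member called in any comparison or interaction and for CDKN1A, MDM2, BAX, BBC3, GADD45A and PMAIP1, and from each further list the 3 largest called differences in each depletion comparison were named. Some results that this rule gives are not reported here. Genes singled out beyond it were chosen after their values were seen. Neighbour medians took 25 tested genes on either side. Alternatives were a median-ratio rescaling, no filter, a minimum mean of 10, pseudocounts of 0.1 and 5, the replicate letter as a block, edgeR, DESeq2, removal of the neighbour median from the depleted libraries and leaving out each library. The procedure was tested on simulated data. Promoters came from RefSeq, GRCh38.p14. Python 3.11.15 with pandas 2.3.3, numpy 2.4.6, matplotlib 3.10.9 and scipy 1.17.1 made tables and plots.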

Additional observations from a re-analysis of the deposited data

Results flagged for a closer look

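Responses to TNF-α that differed between control and mutp53-depleted cells, by limma's interaction at an adjusted p under 0.05, are given for the members and the named genes of the p53 pathway. Among the members the interaction was 1.00 for GADD45A, whose libraries went lower after TNF-α in control cells and higher in depleted cells. It was −1.11 for PERP, which rose in both lines, and −0.94 for PHLDA3, which was higher after TNF-α in control cells and lower in depleted cells.

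Of the further p53 targets, CD82 had an interaction of 0.79, with 1115 and 1021 normalized reads in the control libraries at 0 h, 4083 and 3386 at 16 h, 260.0 and 221 in depleted cells at 0 h and 1539 and 1366 at 16 h. It thus rose in both lines. The interaction was 0.87 for SFN, which had 2460 and 2313 normalized reads in the control libraries at 0 h, 1612 and 1505 at 16 h, 874 and 865 in depleted cells at 0 h and 971 and 1105 at 16 h. The libraries were lower after TNF-α in control cells and higher in depleted cells. For VDR the interaction was −0.55, with 2875 and 2669 normalized reads in the control libraries at 0 h, 2999.8 and 2902 at 16 h, 1411 and 1439.7 in depleted cells at 0 h and 1062 and 1008 at 16 h. The depleted libraries of VDR were lower at 16 h than at 0 h, and the control libraries were slightly higher.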

How the results depend on the processing

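Over the alternatives, 18 single-gene values of the called members gave 304 values, of which 283 kept their direction and side of the threshold, 21 kept the direction without passing, and none changed direction. In 11 of the 18, every alternative kept the call, and the 7 others were ACER2, MDM2, BBC3, CYFIP2 and CMBL after depletion and PERP after TNF-α in depleted cells, ACER2 at both times.

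At 0 h the count of called members after depletion was 2, and 1 with a minimum mean of 10 or a pseudocount of 0.1, both without ACER2, and 4 with the neighbour median removed. Of all genes, 2285 were called at 0 h, and 1940, 2170 and 1765 under these 3 settings in that order. With a minimum mean of 10, 13124 genes were tested. At 16 h the count of members was 7. It was 3 with a pseudocount of 5, 5 with the neighbour median removed, 6 with DESeq2 and 6 with a minimum mean of 10. All genes called at 16 h numbered 2255, and 1912, 1793, 1918 and 1956 under these settings in that order. TNF-α in depleted cells called 2 members, and 4 with edgeR, with DESeq2 and after rescaling. Of all genes it called 941, and 939, 681 and 899 in that order. Interactions of members numbered 3, and 5 with the neighbour median removed, which added AEN and NINJ1, where 424 and 471 of all genes passed. Leaving out 1 library, where the lone sample of a group is assumed to vary like the other groups, gave 2 to 3 called members at 0 h, 5 to 7 at 16 h, 4 to 5 after TNF-α in control cells, 2 to 4 in depleted cells and 3 interactions. At 0 h the members called were not the same in all of these fits, as ACER2 was lost in some and BAX or TRIAP1 gained in some. The cause of the differences between settings was not tested, apart from ACER2, which a minimum mean of 10 removes. The replicate letters were shared by the columns and may not pair the libraries, since the correlation of A less B between groups was −0.02 to 0.07. With the replicate block the counts of members were 2, 7, 4 and 2, and 4 interactions, which added NINJ1. Over all genes these counts were 2298, 2271, 1096 and 955, and 559 interactions. Depth limits ACER2, KITLG and SPATA18.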
